A study of Drosophila melanogaster with 6 samples.

Results

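The genes described here are 30 listed genes of sugar metabolism, which cover glycolysis, the pentose phosphate pathway, glycogen, gluconeogenesis and trehalose. They were chosen by name, and each was read from the brightest probe set that the platform annotation gives to it alone. That gave values for 24 of the 30 genes, out of 11983 genes measured in this way. Gapdh2, PyK, Ldh, Gpo1 and Zw had no probe set of their own in the annotation used here, and Pgd had only 1 that it shares with another gene, so these 6 genes were not analysed here.

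RNA was taken from whole Drosophila melanogaster embryos that carried a null mutation of trh (trh null, 3 arrays) or were wild type (3 arrays). Trachealess, the product of trh, is a bHLH-PAS transcription factor that starts tracheal development, and embryos that lack it form no tracheal tubes. Embryos of both genotypes were collected for 8 h, aged for 11 h and passed through a COPAS biosorter, and trh null embryos were picked because they lacked GFP from the balancer. Both genotypes are labelled as stages 11 to 16, but the description of the wild type samples ends at stage 17, and whether the genotypes differed in age was not tested. Separate collections are not stated for the replicates, and the p-values may therefore reflect technical spread alone. In whole embryos, fewer cells of a type and less RNA per cell cannot be told apart.

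Glycolysis cuts a glucose molecule into a pair of 3-carbon pyruvate molecules and yields ATP and NADH. The pentose phosphate pathway branches off at glucose-6-phosphate and makes NADPH and ribose, and glycogen and trehalose are the stored and the circulating forms of sugar in the fly. In the Drosophila embryo most glycolytic genes are switched on together midway through embryogenesis by the nuclear receptor ERR, as background.

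Of the 24 measured genes, 11 were lower in trh null than in wild type embryos (45.8%) at an adjusted p under 0.05 in limma's moderated test, 1 was higher, and 12 did not pass. Of all genes 7.31% were lower and 6.79% were higher by the same rule. Most of the sugar metabolism genes are bright, 21 of 24 lying above the median gene, and among genes above that median 8.41% were lower and 8.26% higher. The median log2 difference, trh null minus wild type, was -0.49 over the 24 genes and 0.00 over all genes. For 15 of the 24 genes (62.5%) all 3 trh null values lay below all 3 wild type values, against 19.4% of all genes, and for 1 gene all lay above, against 18.8% of all genes. These counts describe a list chosen with earlier results of these arrays known.

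**Figure D1:**
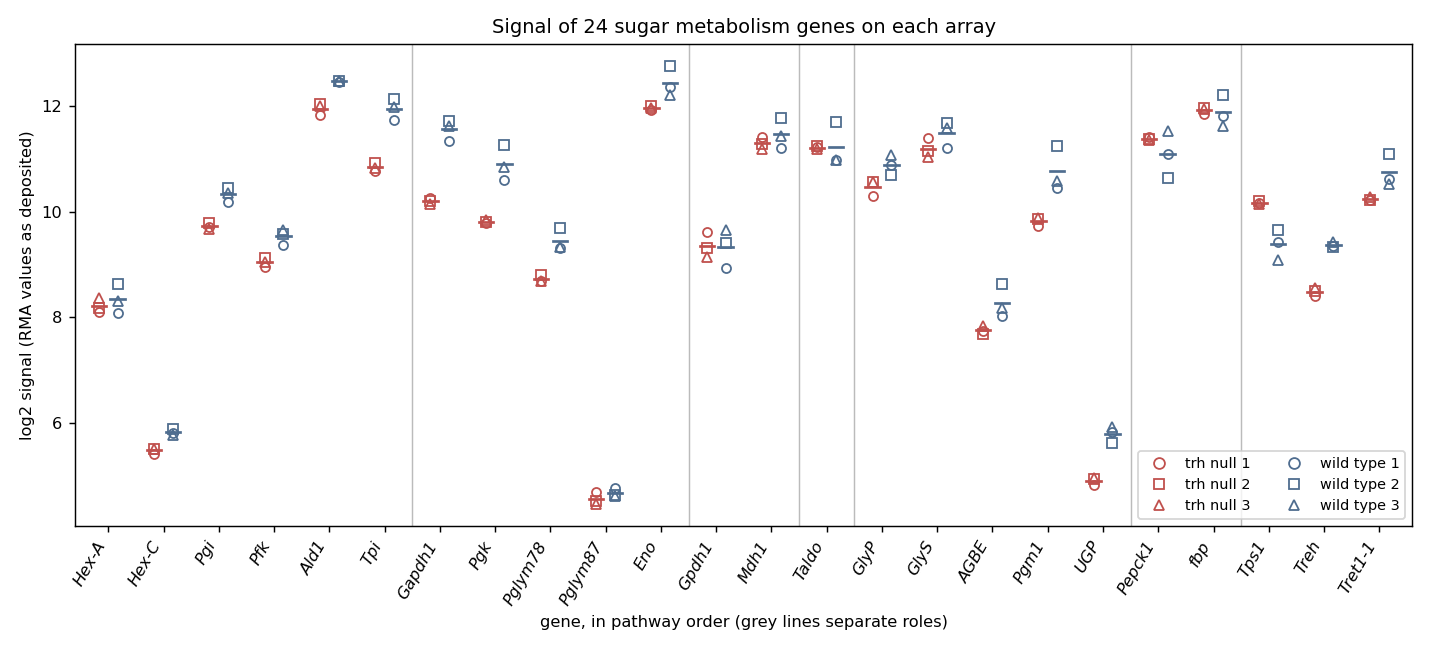
Log2 signal (vertical axis) of the 24 measured sugar metabolism genes in pathway order (horizontal axis) on each array, with trh null in red at the left and wild type in blue at the right of each gene. Symbols mark the arrays, short bars the means of 3 arrays and grey lines the borders between roles. From Hex-C to Pglym78 the red symbols lie below the blue ones, Tps1 is the gene with its red symbols wholly above, and the blue symbols are spread more widely than the red ones for 20 of the 24 genes.

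The steps from glucose to triose phosphate were lower in trh null embryos at 5 of 6 measured genes. Hex-A and Hex-C encode hexokinases, which put the first phosphate on glucose. Hex-C had log2 signals of 5.42, 5.52 and 5.52 in trh null embryos, against 5.81, 5.88 and 5.78 in wild type embryos, so that the genotypes did not overlap on a probe set dimmer than the median one (6.21). It was 1.27-fold lower in trh null embryos (log2 difference -0.34, SE 0.07, limma adjusted p = 0.0352). Hex-A did not pass, with 8.21 ± 0.13 in trh null and 8.34 ± 0.27 in wild type embryos (SD, n = 3 each) and a 95% interval of the difference from -0.50 to 0.24. The difference between Hex-C and Hex-A within each array averaged -2.73 ± 0.10 in trh null and -2.51 ± 0.24 in wild type embryos, and the genotypes differed by -0.21 (exact two-sided permutation p = 0.3, where 0.1 is the smallest p that 3 against 3 arrays allow), so the 2 hexokinases were not shown to differ from each other in their response.

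Pgi, which converts glucose-6-phosphate to fructose-6-phosphate, had 9.72, 9.79 and 9.68 in trh null embryos, against 10.19, 10.46 and 10.36 in wild type embryos on the log2 scale. Every trh null value was below every wild type value, and the signal was 1.52-fold lower (log2 difference -0.60, SE 0.09, limma adjusted p = 0.0116). Pfk encodes phosphofructokinase, which commits sugar to glycolysis. Its log2 signals were 8.94, 9.11 and 9.05 in trh null and 9.37, 9.58 and 9.66 in wild type embryos, a 1.41-fold lower level with no overlap (log2 difference -0.50, SE 0.10, limma adjusted p = 0.0291). With a trend and robust prior Pfk no longer passed.

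Ald1 encodes the aldolase that splits the phosphorylated hexose. On its brightest probe set it had 11.82, 12.03 and 11.99 in trh null embryos, against 12.45, 12.47 and 12.48 in wild type embryos. Wild type arrays agreed within 0.03 there, and the signal was 1.43-fold lower in trh null embryos (log2 difference -0.52, SE 0.08, limma adjusted p = 0.0129). A second, dimmer probe set of Ald1 differed by only -0.16 (limma adjusted p = 0.625) with overlapping values, and the mean over both sets did not pass, so the call rests on 1 probe set. Tpi encodes triosephosphate isomerase, which interconverts the products of that split. It had 10.77, 10.92 and 10.83 in trh null embryos, against 11.73, 12.12 and 11.98 in wild type embryos. This was a clear gap between the genotypes, with a 2.16-fold lower signal in trh null embryos (log2 difference -1.11, SE 0.12, limma adjusted p = 0.00318).

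The steps from triose phosphate to pyruvate hold the largest difference among the 24 genes. Gapdh1 encodes glyceraldehyde-3-phosphate dehydrogenase, the step that makes NADH. Its log2 signals were 10.26, 10.21 and 10.14 in trh null embryos, against 11.33, 11.72 and 11.62 in wild type embryos. The lowest wild type value was more than 1 log2 unit above the highest trh null value, and the signal was 2.56-fold lower (log2 difference -1.36, SE 0.12, limma adjusted p = 0.0018). The array also carries control probe sets named GAPDH at the 3′ end, middle and 5′ end of the transcript. They differed by -1.23, -0.79 and -0.94 on the log2 scale, with no overlap between genotypes at any of the 3 positions.

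Pgk encodes phosphoglycerate kinase, the first ATP-forming step. It had 9.78, 9.79 and 9.85 in trh null embryos, against 10.59, 11.26 and 10.84 in wild type embryos. The trh null arrays agreed closely while the wild type arrays were spread widely, and the signal was 2.13-fold lower (log2 difference -1.09, SE 0.17, limma adjusted p = 0.0115). Pglym78 encodes phosphoglycerate mutase, with 8.68, 8.80 and 8.69 in trh null embryos, against 9.32, 9.69 and 9.33 in wild type embryos. It was 1.65-fold lower without overlap (log2 difference -0.72, SE 0.12, limma adjusted p = 0.0152). Pglym87, a paralog, gave a dim signal of 4.56 ± 0.12 in trh null and 4.67 ± 0.08 in wild type embryos and did not pass (95% interval of the difference -0.33 to 0.12). Within each array Pglym87 minus Pglym78 averaged -4.16 ± 0.15 in trh null and -4.77 ± 0.26 in wild type embryos (SD, n = 3 each). That difference of 0.61 had an exact two-sided permutation p of 0.1, the smallest this design allows. With Pglym87 far dimmer than the median probe set (6.21), this mostly restates the lower Pglym78 signal and does not show how Pglym87 responds. Eno, for enolase, did not pass (limma adjusted p = 0.0903), although its 11.96 ± 0.04 in trh null embryos lay wholly below its 12.44 ± 0.28 in wild type embryos.

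**Figure D2:**
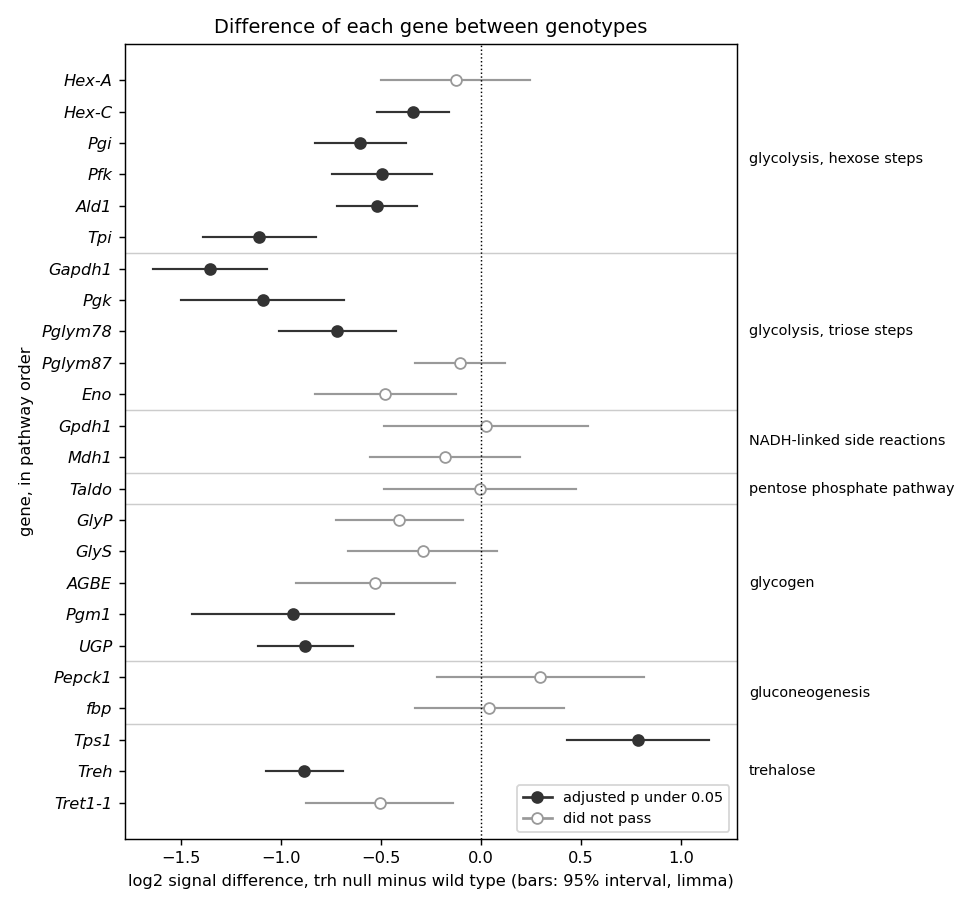
Log2 signal difference, trh null minus wild type (horizontal axis), of the 24 measured genes in pathway order from top to bottom. Points are differences of means of 3 arrays, bars are 95% limma intervals, and filled points passed an adjusted p under 0.05. The glycolytic block from Hex-C to Pglym78 holds 8 filled points below 0 with Gapdh1 lowest at -1.36, and Tps1 at 0.78 is the 1 filled point above 0.

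Neither of the 2 measured genes of side reactions that use or regenerate cytosolic NADH passed, nor did the brightest probe set of either have an unadjusted p under 0.05 in limma. Gpdh1 encodes the glycerol-3-phosphate dehydrogenase that links glycolysis to lipid synthesis. Its brightest probe set had 9.62, 9.30 and 9.14 in trh null embryos, against 8.94, 9.40 and 9.65 in wild type embryos, with wide spread in both genotypes and a difference of 0.02 (95% interval -0.48 to 0.53). The other 3 probe sets of Gpdh1 differed by -0.43, 0.26 and 0.35, none passed, and their signs disagree. The dimmest of them, at 0.35 (95% interval 0.12 to 0.57), had no overlap between the genotypes, with an unadjusted limma p of 0.00836 and an adjusted p of 0.0618. In a second group of control probe sets named GAPDH, the 3′ and middle sets followed Gpdh1 rather than Gapdh1. The 3′ sets lay within 0.083 and 0.055 log2 units of the brightest and second brightest Gpdh1 sets on every array, and the middle set within 0.169 of the brightest. By their values these sets read as Gpdh1. The 5′ set of this group lay 2.12 to 2.87 log2 units from the brightest Gpdh1 set but 0.099 to 0.606 from the dimmest. Like that dimmest set, the 5′ set was higher in trh null embryos by 0.35 without overlap. It correlated with the Gpdh1 sets at -0.22 to 0.80 and with Gapdh1 at -0.77. Mdh1, the cytosolic malate dehydrogenase, had 11.42, 11.27 and 11.18 in trh null embryos, against 11.21, 11.78 and 11.43 in wild type embryos. Its values overlapped, and the difference was -0.18 (95% interval -0.56 to 0.19).

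**Figure D3:**
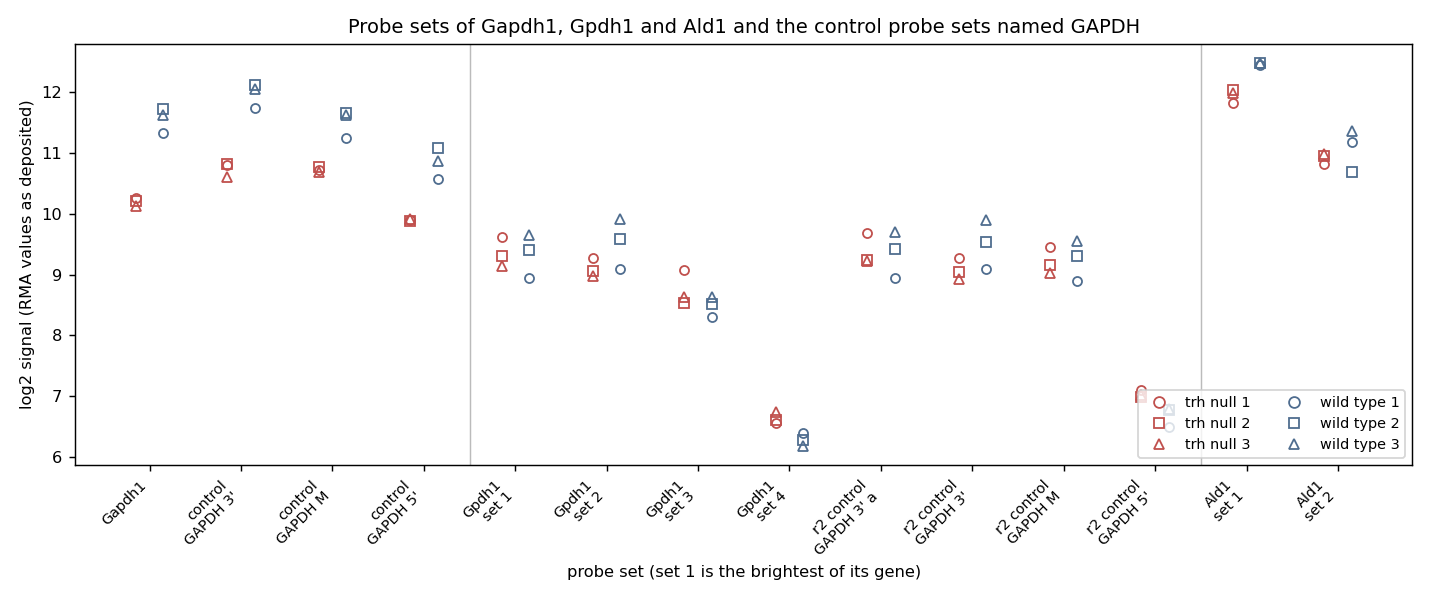
Log2 signal (vertical axis) on each array for the probe sets of Gapdh1, Gpdh1 and Ald1 and for the control probe sets named GAPDH (horizontal axis), with trh null in red at the left and wild type in blue at the right of each set. Grey lines separate Gapdh1 with its control sets, Gpdh1 with the second group of control sets, and Ald1. Of that second group the 5′ set lies nearest to the dimmest Gpdh1 set, and the others follow brighter Gpdh1 sets more closely. All 4 sets in the left block are lower in trh null embryos without overlap, whereas the 4 Gpdh1 sets differ in sign from -0.43 to 0.35.

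For the pentose phosphate pathway, Taldo, the transaldolase of its sugar-shuffling arm, was the only measured member of 3 listed. It had 11.23, 11.23 and 11.18 in trh null embryos, against 10.98, 11.69 and 10.98 in wild type embryos. Wild type 2 stood above all the other arrays, and the difference of -0.01 (95% interval -0.49 to 0.47) became 0.23 without that array, where it passed as higher (limma adjusted p = 0.0497). The pathway's NADPH-forming enzymes, Zw and Pgd, were not analysed here.

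Genes of glycogen handling were lower at 2 of 5, both of which serve the sugar phosphates that feed glycogen. Pgm1, phosphoglucomutase, converts glucose-1-phosphate and glucose-6-phosphate into each other. It had 9.72, 9.87 and 9.88 in trh null embryos, against 10.45, 11.25 and 10.58 in wild type embryos. Its level was 1.92-fold lower without overlap (log2 difference -0.94, SE 0.21, limma adjusted p = 0.0363), and wild type 2 was again the highest array. UGP makes UDP-glucose, the donor for glycogen synthesis. Its log2 signals were 4.83, 4.94 and 4.95 in trh null embryos, against 5.82, 5.63 and 5.92 in wild type embryos, all dimmer than the median probe set. The signal was 1.84-fold lower (log2 difference -0.88, SE 0.10, limma adjusted p = 0.00391), and with signals this dim the size of the change is uncertain.

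The other 3 listed glycogen genes did not pass. GlyP, glycogen phosphorylase, had 10.47 ± 0.15 in trh null and 10.88 ± 0.20 in wild type embryos (SD, n = 3 each; 95% interval of the difference -0.73 to -0.09; limma adjusted p = 0.103). GlyS, glycogen synthase, had 11.19 ± 0.18 in trh null and 11.48 ± 0.25 in wild type embryos, with overlapping values and an interval from -0.67 to 0.08. AGBE, the branching enzyme, had 7.75 ± 0.08 in trh null and 8.28 ± 0.32 in wild type embryos without overlap (difference -0.53, limma adjusted p = 0.0965).

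Neither measured gluconeogenic gene passed the test, with point estimates above 0. Pepck1, the phosphoenolpyruvate carboxykinase, had 11.41, 11.37 and 11.36 in trh null embryos, against 11.09, 10.64 and 11.53 in wild type embryos. The trh null values fell inside the wide wild type range, and the difference was 0.30 (95% interval -0.22 to 0.82). The fbp gene, for fructose bisphosphatase, opposes Pfk. It had 11.84, 11.96 and 11.94 in trh null embryos, against 11.81, 12.20 and 11.62 in wild type embryos, with a difference of 0.04 (95% interval -0.33 to 0.41).

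Of the 3 trehalose genes 1 was higher and 1 was lower. Tps1, the trehalose-6-phosphate synthase that makes the circulating sugar, rose. Its log2 signals were 10.16, 10.20 and 10.14 in trh null embryos, against 9.42, 9.65 and 9.08 in wild type embryos, a 1.72-fold higher level without overlap (log2 difference 0.78, SE 0.15, limma adjusted p = 0.0215). Treh, the trehalase that splits trehalose into glucose, fell. It had 8.40, 8.51 and 8.56 in trh null embryos, against 9.36, 9.33 and 9.43 in wild type embryos, which was 1.85-fold lower with little spread in either genotype (log2 difference -0.88, SE 0.08, limma adjusted p = 0.00194). Tret1-1, a trehalose transporter, had 10.24 ± 0.04 in trh null and 10.74 ± 0.30 in wild type embryos without overlap and did not pass (difference -0.51, limma adjusted p = 0.0867).

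Single arrays bear on these calls. Wild type 2 correlated less with the other wild type arrays (r = 0.979 and 0.976) than they did with each other (0.994), and the trh null arrays correlated at 0.995 to 0.998. The median SD of the 24 genes was 0.0708 in trh null and 0.262 in wild type embryos, and that of all genes 0.0837 in trh null and 0.200 in wild type embryos. Wild type 2 was the highest wild type array for 16 of the 24 genes and for 7 of the 11 lower ones, against 50.1% of all genes. Without wild type 2 the list had 15 lower genes and 2 higher, with Eno, GlyP, AGBE and Tret1-1 added to the lower ones. Tpi, Gapdh1, UGP and Treh kept their calls without each array in turn. Without any 1 trh null array the other 8 genes, Hex-C, Pgi, Pfk, Ald1, Pgk, Pglym78, Pgm1 and Tps1, kept their direction but lost the call (limma adjusted p between 0.0506 and 0.146). Without wild type 1 Hex-C and Tps1 were lost, and without wild type 3 Hex-C, Pfk and Pgm1 were lost (limma adjusted p between 0.057 and 0.0807).

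Markers of other tissues and of RNA quality also differed between the genotypes. Of 11 measured somatic muscle genes, a tissue rich in glycolytic enzymes, 6 were lower in trh null embryos and none was higher. The 6 ranged from TpnC73F (log2 difference -2.33) to Mlp60A (-0.54). Of the 5 that did not pass, Mlc2 (-0.80), Mlp84B (-0.64) and Act87E (-0.56) had differences below 0, and bt (0.10) and sls (1.53) above 0, with sls wholly higher in trh null embryos (limma adjusted p = 0.201). The summed log2 signal of the 11 ranged from 119.18 to 122.55 in trh null and from 122.48 to 133.08 in wild type embryos. These sums overlapped through wild type 2 alone, where sls (7.08) and bt (8.77) were lower than in the other wild type arrays. Wild type 2 was the lowest wild type array for 5 of the 6 lower muscle genes and for 2 of the 11 lower sugar metabolism genes. The share of all genes with wild type 2 lowest was not computed, and what this order reflects was not tested. Tracheal markers were lower at 2 of 6 (Gasp and btl), with summed signals of 60.2 to 61.5 in trh null and 63.9 to 66.2 in wild type embryos. Hemocyte markers were higher at 2 of 6 (Pxn, 0.94, and Sr-CI, 1.16), with sums of 42.8 to 43.1 in trh null and 40.3 to 40.8 in wild type embryos. The other hemocyte markers NimC1 (0.33), eater (0.01), crq (-0.04) and Hml (-0.08) did not pass, so the hemocyte sums mostly reflect Pxn and Sr-CI. Of 6 glial markers nrv2 was lower and Gs2 higher. No measured marker of fat body (4), midgut (7) or neurons (5) passed in limma, where 0, 1 and 2 of them had an unadjusted p under 0.05. These were LManII (0.89) of midgut and elav (1.65) and brp (0.56) of neurons, each wholly higher in trh null embryos (limma adjusted p between 0.054 and 0.0819). Differences below 0 were those of Syn (-0.83) among neuron markers and mex1 (-0.37) and Jon99Ci (-0.11) among midgut markers. The 3′ actin control exceeded the 5′ one by 0.76 ± 0.03 in trh null and 1.36 ± 0.09 in wild type embryos on the log2 scale, and the 3′ GAPDH control exceeded the 5′ one by 0.84 ± 0.13 in trh null and 1.12 ± 0.08 in wild type embryos (SD, n = 3 each). Such differences track RNA length. The part of these in the differences of the sugar metabolism genes was not tested.

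Other genes around the same pathways were read from 8 further lists. Of 99 measured genes 18 were lower, 4 were higher and 77 did not pass, with a median log2 difference of -0.08. All genes were lower at 7.31% and higher at 6.79%. Without wild type 2 these lists held 29 lower and 12 higher genes, and without any 1 trh null array 8 or 9 lower and 0 higher. None of 14 genes listed as glycolysis paralogs passed in limma (3 had an unadjusted p under 0.05). That list also holds paralogs of Gpdh1 and Gpo1. Its brightest genes were Pfrx (log2 difference 0.27), which makes and breaks the activator of phosphofructokinase, and CG2964 (-0.06). All its other genes had mean signals dimmer than the median probe set (6.21), so the lack of calls does not show how they respond. None of 7 further genes listed under the pentose phosphate pathway passed in limma either (2 had an unadjusted p under 0.05). The brightest of these were CG8036, a transketolase (0.43, 95% interval 0.05 to 0.80, limma adjusted p = 0.143), and CG1637 (0.07). Whether CG1637 acts in this pathway was not checked. Without wild type 2 both CG8036 (0.58, limma adjusted p = 0.00724) and Pfrx (0.31, limma adjusted p = 0.0269) passed as higher, as they did with array weights.

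Among 8 other glycogen genes 3 were lower and 1 was higher. CG8475 (log2 difference -0.59), Gbs-76A (-0.65), a glycogen-binding subunit of protein phosphatase, and CG9485 (-0.38), the debranching enzyme, fell, and PhKgamma (0.40), the catalytic subunit of phosphorylase kinase, rose. Gbs-76A was dimmer than the median probe set (6.21) in both genotypes, with means of 5.29 in trh null and 5.94 in wild type embryos. Of 13 further genes of trehalose and sugar transport 3 were lower and 2 were higher. The gene nebu, listed as a sugar transporter, had 9.25, 9.36 and 9.42 in trh null embryos, against 10.90, 11.28 and 10.88 in wild type embryos (log2 difference -1.68, limma adjusted p = 0.00124). CG5177 (-0.87) and CG5171 (0.47), which both encode trehalose phosphatases, passed in opposite directions, and CG1213 (-0.71) and CG4607 (0.46), both listed as sugar transporters, did likewise. CG4607 was also dimmer than the median probe set, with means of 4.87 in trh null and 4.41 in wild type embryos. PhKgamma also lost its call with the trend and robust prior, quantile normalization, cyclic loess, the filter on dim probe sets, the mean over its probe sets and its second probe set (limma adjusted p between 0.0514 and 0.119). CG9485 lost it with the trend and robust prior (0.119) and median centring (0.051), and Gbs-76A with quantile normalization (0.0513) and cyclic loess (0.0578). CG8475 and nebu kept their calls without each array in turn. Without any 1 trh null array CG9485, Gbs-76A, PhKgamma, CG5177, CG5171 and CG4607 lost theirs, and CG1213 did without trh null 3. Without wild type 1 Gbs-76A, PhKgamma, CG5177 and CG4607 were lost, and without wild type 3 CG9485, Gbs-76A, PhKgamma and CG5177 were lost.

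Of 15 genes of galactose, polyols and carbohydrate digestion 5 were lower and none was higher. The 4 largest differences were those of the maltase genes Mal-B1 (log2 difference -1.60), Mal-A1 (-1.46), Mal-A2 (-1.23) and Mal-A3 (-1.07). In trh null embryos Mal-B1, Mal-A1 and Mal-A2 had means of 5.17, 5.67 and 5.31, dimmer than the median probe set (6.21). Their wild type means of 6.77, 7.13 and 6.53 were above it. Of 21 genes of pyruvate entry and the citric acid cycle 5 were lower and none was higher. Idh3b, a subunit of isocitrate dehydrogenase, was 5.01-fold lower, with 8.20, 8.07 and 8.15 in trh null embryos, against 10.22, 10.80 and 10.36 in wild type embryos (limma adjusted p = 0.000862). Its log2 difference of -2.32 was larger in size than that of any of the 24 sugar metabolism genes. The genes of other subunits, Idh3a (0.37, limma adjusted p = 0.227) and Idh3g (0.52, limma adjusted p = 0.217), did not pass. Every trh null value of both lay above every wild type value. Men, the malic enzyme, was 2.12-fold lower, CG5214 differed by -0.82 and SdhD, a subunit of succinate dehydrogenase, by -0.49. Mal-A1, Idh3b, Men and CG5214 kept their calls without each array in turn. Mal-B1, Mal-A2 and SdhD lost theirs without any 1 trh null array, Mal-A2 also without wild type 1, SdhD also without wild type 3 or with the trend and robust prior (limma adjusted p = 0.0511), and Mal-A3 without trh null 2.

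ERR, the activator of glycolytic genes named above, had 6.61, 6.54 and 6.68 in trh null embryos, against 6.55, 6.90 and 6.39 in wild type embryos, a difference of 0.00 (95% interval -0.33 to 0.33). These are mRNA signals, the activity of the ERR protein was not measured, and its part in the differences was not tested. ERR was 1 of 13 regulators measured. Among these AkhR, the receptor of the adipokinetic hormone that mobilises stored sugar, was the 1 that passed, at a log2 difference of -1.06 (limma adjusted p = 0.0181). The call was lost without any 1 trh null array, and the second probe set of AkhR had a difference of 0.34, of the other sign. The mean over both sets did not pass (-0.36, limma adjusted p = 0.106). The brightest set of AkhR had means of 5.18 in trh null and 6.24 in wild type embryos, where the median probe set lay at 6.21. Of 8 genes of the hypoxia response 1 was higher and 1 lower. The HIF-alpha gene sima had 11.03, 11.07 and 11.17 in trh null embryos, against 9.98, 8.41 and 9.72 in wild type embryos. Its difference of 1.72 (limma adjusted p = 0.0386) lay between 1.24 and 2.02 when each array was left out, and the call was lost without wild type 3, without any 1 trh null array and with cyclic loess (limma adjusted p = 0.0592). The FGF receptor gene btl, which is on this list and also a tracheal marker, was 2.60-fold lower (limma adjusted p = 0.00153). Its trh null mean of 5.60 was dimmer than the median probe set.

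**Figure D4:**
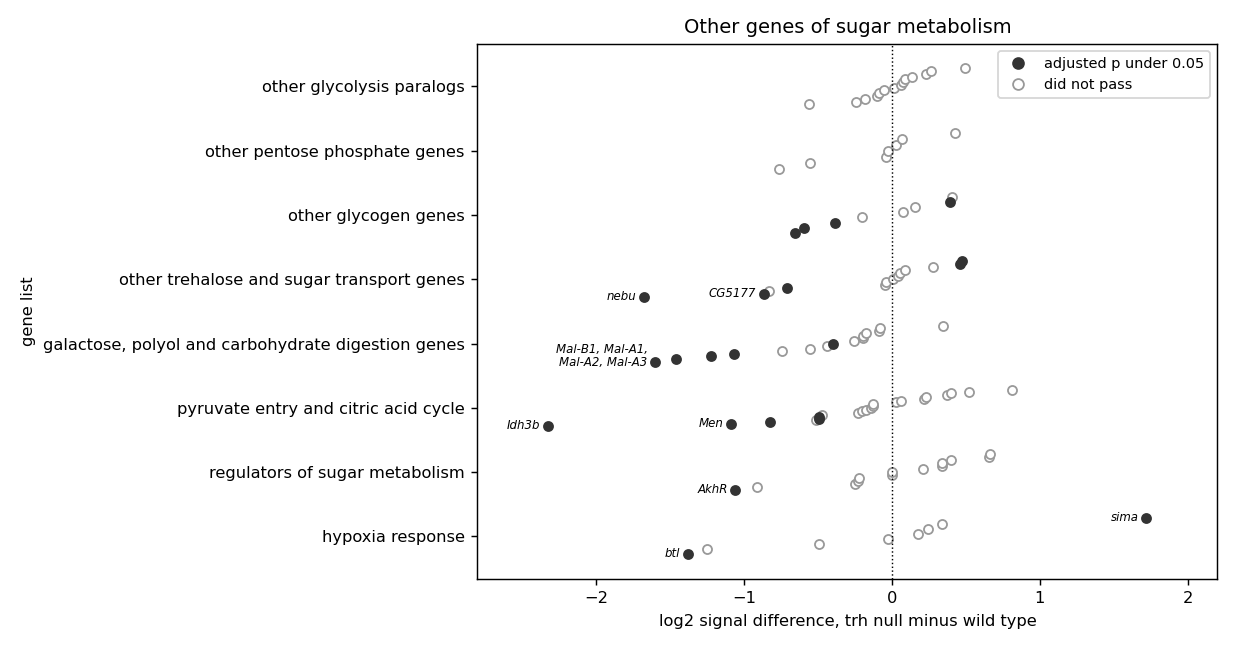
Log2 signal difference, trh null minus wild type (horizontal axis), for the 99 measured genes of 8 further lists (rows). Each point is 1 gene by its brightest probe set, and filled points passed an adjusted p under 0.05. Rows of glycolysis paralogs and pentose phosphate genes hold no filled point, and most of the listed paralogs are dimmer than the median probe set. Idh3b lies farthest to the left at -2.32, and sima lies farthest to the right at 1.72.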

How the data were processed

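Total RNA of 6 samples was amplified from the 3′ end and hybridised to Affymetrix Drosophila Genome 2.0 arrays, per the labels' protocols. The deposited values are on a log2 scale (base inferred from their range), and RMA and Partek are named per the submitters' processing notes, without versions. RMA as generally run makes the array distributions equal, so a change shared by all transcripts would not show. Array medians lay between 6.16 and 6.22, and precision is limited by having 3 arrays per genotype.

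Of 18952 deposited probe sets, 183 controls were left out, and 18769 were fitted with genotype as the only term in limma 3.58.1 (lmFit, eBayes; R 4.3.3). Benjamini-Hochberg adjustment ran over all 18769, and the threshold was 0.05. A gene took the probe set with the highest mean among those naming it alone, by the platform annotation and the gene identifiers of RefSeq. For 7 of the 24 genes the set's name ends in _s_at, so its probes can match more than 1 transcript. These genes are Pgi, Ald1, Tpi and Treh, which were called lower, and Eno, GlyS and fbp, which did not pass. Whether those transcripts include ones of other genes was not checked. Signals of different genes are on no common scale. Gene pairs were compared by their difference within each array with exact permutation tests in scipy 1.17.1, and the planned pair of Gapdh2 and Gapdh1 could not be run. Tables were handled in Python 3.11.15 (pandas 2.3.3), figures were drawn with matplotlib 3.10.9, and the fit was tested on simulated data.

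Alternatives were another prior, array weights, 3 further normalizations, a filter on the 40% dimmest probe sets, other probe sets of a gene, a replicate block, stricter thresholds and leaving out each array. The genes, lists and tests were chosen with earlier results of these data known. The text names all 30 genes, with every array's value for those that passed and for groups in which none passed. From each further list it names up to 4 genes that passed in each direction, taken by the size of the difference, or the 2 brightest where none passed. ERR, Idh3a and Idh3g were named apart from this rule, after their values were seen, as were the genes named from the tissue marker lists. Trh itself has no probe set of its own here and was not analysed here. Replicate numbers did not pair the samples (correlations of same-numbered deviations -0.37, -0.06 and -0.05).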

Additional observations from a re-analysis of the deposited data

How the results depend on the processing

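The 11 lower genes and the 1 higher gene were counted again under other settings. With the replicate number as a block, which does not pair the samples, 6 were lower and 0 higher; at an adjusted p under 0.01, 4 were lower and 0 higher; with a 2-fold minimum, 3 were lower and 0 higher. Leaving out 1 array at a time gave 4 to 15 lower and 0 to 2 higher genes. Of the 99 other genes, 18 lower and 4 higher became 29 and 16 with array weights, 9 and 0 with the replicate block, 8 and 0 at an adjusted p under 0.01, 9 and 1 with a 2-fold minimum, and 8 to 29 and 0 to 12 without single arrays. There were 2 higher genes with cyclic loess and 2 without the 40% dimmest probe sets. The settings with the block, the stricter threshold and the single arrays left out change the samples, the residual degrees of freedom or the threshold; for the remaining ones the cause was not tested. Array weights gave 15 lower sugar metabolism genes and cyclic loess 13. Without the 40% dimmest probe sets Hex-C lost its call, and UGP and Pglym87 were not in the fit. The 12 genes that passed kept their direction under every setting run. Some genes that did not pass changed sign: Hex-A with array weights (0.0979; -0.26 to 0.0164 without single arrays), Gpdh1 with quantile normalization (-0.0190), cyclic loess (-0.0280) and its second probe set (-0.43; -0.17 to 0.19 without single arrays), Taldo with array weights (0.20) and quantile normalization (0.00919; -0.13 to 0.23 without single arrays), fbp with cyclic loess (-0.00201; -0.0898 to 0.20 without single arrays) and CG2964 with array weights (0.0671; -0.13 to 0.0151 without single arrays). The second probe set of AkhR gave 0.34. The pair differences ranged without single arrays from -0.33 to -0.09 for Hex-C minus Hex-A and from 0.47 to 0.73 for Pglym87 minus Pglym78. The median of all probe sets moved by under 0.01 with each scaling.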
